A study of Mus musculus with 16 samples.

Results

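The 10 genes described here, Foxl2, Sox9, Dmrt1, Amh, Amhr2, Inha, Fst, Lhcgr, Insl3 and Wt1, are known for setting or marking the fate of ovary and testis, and they were followed in the adrenal gland. They were taken as the rows of the deposited table whose Ensembl identifiers carry these names in the GENCODE M21 mouse annotation, which gave 10 of 54838 genes. Counts were found for 9 of the 10 members, and the same 9 entered the tests. Adrenal RNA was sequenced at the age of 4 weeks from mice of mixed genetic background, with 4 mice in each of 4 groups and 1 library per mouse. Both sexes were studied as controls and with an Rspo1 gain of function (GOF), which made the groups female control, female GOF, male control and male GOF. The product of Rspo1, R-spondin 1, is a secreted enhancer of WNT signalling. The labels do not give the promoter or the cell type that drives Rspo1 in the GOF mice, nor what the controls carry. Levels are given as raw counts per library and as CPM, counts per 1000000 counts after scaling of the library totals, and libraries are numbered within each group. A gene was taken as at the detection floor of a group when it had 3 counts or fewer in each of its 4 libraries, and 3 counts correspond to between 0.0687 and 0.0968 CPM in these libraries.

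In the embryo, the adrenal cortex and the somatic cells of the gonad arise from a common adrenogonadal primordium under the coelomic epithelium, in which WT1 and the nuclear receptor NR5A1 act. In the testis, SOX9 and DMRT1 direct the supporting cells to become Sertoli cells, which secrete anti-Müllerian hormone (AMH), and Leydig cells respond to luteinizing hormone through LHCGR and secrete INSL3. In the ovary, RSPO1 and WNT4 signal through beta-catenin, FOXL2 maintains granulosa cells, and follistatin (FST) and inhibin alpha (INHA) restrain activin. Inhibin alpha is also made by cells of the adrenal cortex.

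The libraries held between 31275146 and 43003968 counts. All 8 adrenal cortex markers were present, with a summed level between 34760 and 55780 CPM in the 16 libraries. Rspo1 itself averaged 14.8 ± 17.4 CPM in female controls, 458 ± 80.2 CPM in female GOF, 30.5 ± 12.6 CPM in male controls and 805 ± 201 CPM in male GOF (SD, n = 4 each). The female control mean was 6.26 ± 3.28 CPM without female control 1 (n = 3). Every control library held more kidney tubule, liver and adipocyte transcripts than any GOF library. The summed level of 12 kidney tubule markers was 43.2 to 1213 CPM in the 8 controls and 11.7 to 25.7 CPM in the 8 GOF libraries, with the highest values in female control 1 (1213) and female control 3 (242). That of 14 liver markers was 121 to 10310 CPM in controls and 8.55 to 92.1 CPM in GOF, and male control 2 was the library at 10310 CPM, with at most 785 CPM elsewhere. For 7 adipocyte markers the sums were 858.5 to 2696 CPM in controls and 287 to 559 CPM in GOF, and 6 of 7 in females and 7 of 7 in males were called lower in GOF, with none at 0 throughout a group. The part of these tissues in the lower levels of members in GOF was not tested. Germ cell markers summed to between 1.97 and 4.03 CPM. Of genes that define gonadal somatic cells, Fshr and Sry had 0 counts in the 16 libraries and Cyp19a1, the aromatase gene, had at most 7.

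Inha was the only member at a high level. Fst, Wt1 and Sox9 had means between 1.60 and 13.0 CPM in the control groups, and the remaining members had means of at most 1.09 CPM in any group. Dmrt1 was at the floor in all 4 groups, with 0 counts in each of the 16 libraries. Foxl2 was at the floor in female GOF and in male GOF, and Lhcgr in female GOF. The number of members at the floor was therefore 1 of 10 in female controls, 3 in female GOF, 1 in male controls and 2 in male GOF. In a bulk sample a lower level cannot be told apart between fewer cells of a type and less RNA per cell.

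In females, GOF adrenals had lower levels of 6 of the 9 tested members (Fst, Wt1, Foxl2, Lhcgr, Amhr2 and Sox9) and a higher level of none. In males, 3 of 9 were lower (Fst, Wt1 and Sox9) and none was higher. A gene was called at an adjusted p under 0.05, from the quasi-likelihood test of edgeR and the Benjamini-Hochberg method over 18214 genes. Among all tested genes 39.6% were called in females, 19% higher and 20.6% lower, and 36.9% in males, 15.2% higher and 21.8% lower. The share of members called in males was near that background. With an unadjusted p under 0.05, 1 member was higher in each sex, Amh in females and Amhr2 in males, and DESeq2 called 0 members higher in females and 1 in males. The median log2 fold change over the 9 members was -1.33 in females, against 0.05 over all tested genes, and -1.15 in males, against 0.01. With the members that were at the floor in GOF set to 3 counts, the medians were -1.33 and -0.38. The male median rested on male control 2, without which it was -0.04. Without female control 1 and male control 2, whose kidney and liver transcripts are given above, 3 of 8 members were called lower in females (Fst, Wt1 and Foxl2) and 2 of 8 in males (Fst and Wt1), and Lhcgr was not tested in that fit.

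Judged by the libraries alone, the CPM values of the GOF and control groups did not overlap for 4 members in females (Fst, Wt1, Foxl2 and Lhcgr, all lower in GOF). In males 3 were lower without overlap (Fst, Wt1 and Sox9) and 1 was higher (Insl3). The share of all tested genes without overlap was 37.8% in females, 17.4% higher and 20.4% lower, and 33.1% in males, 14% higher and 19.1% lower.

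**Figure D1:**
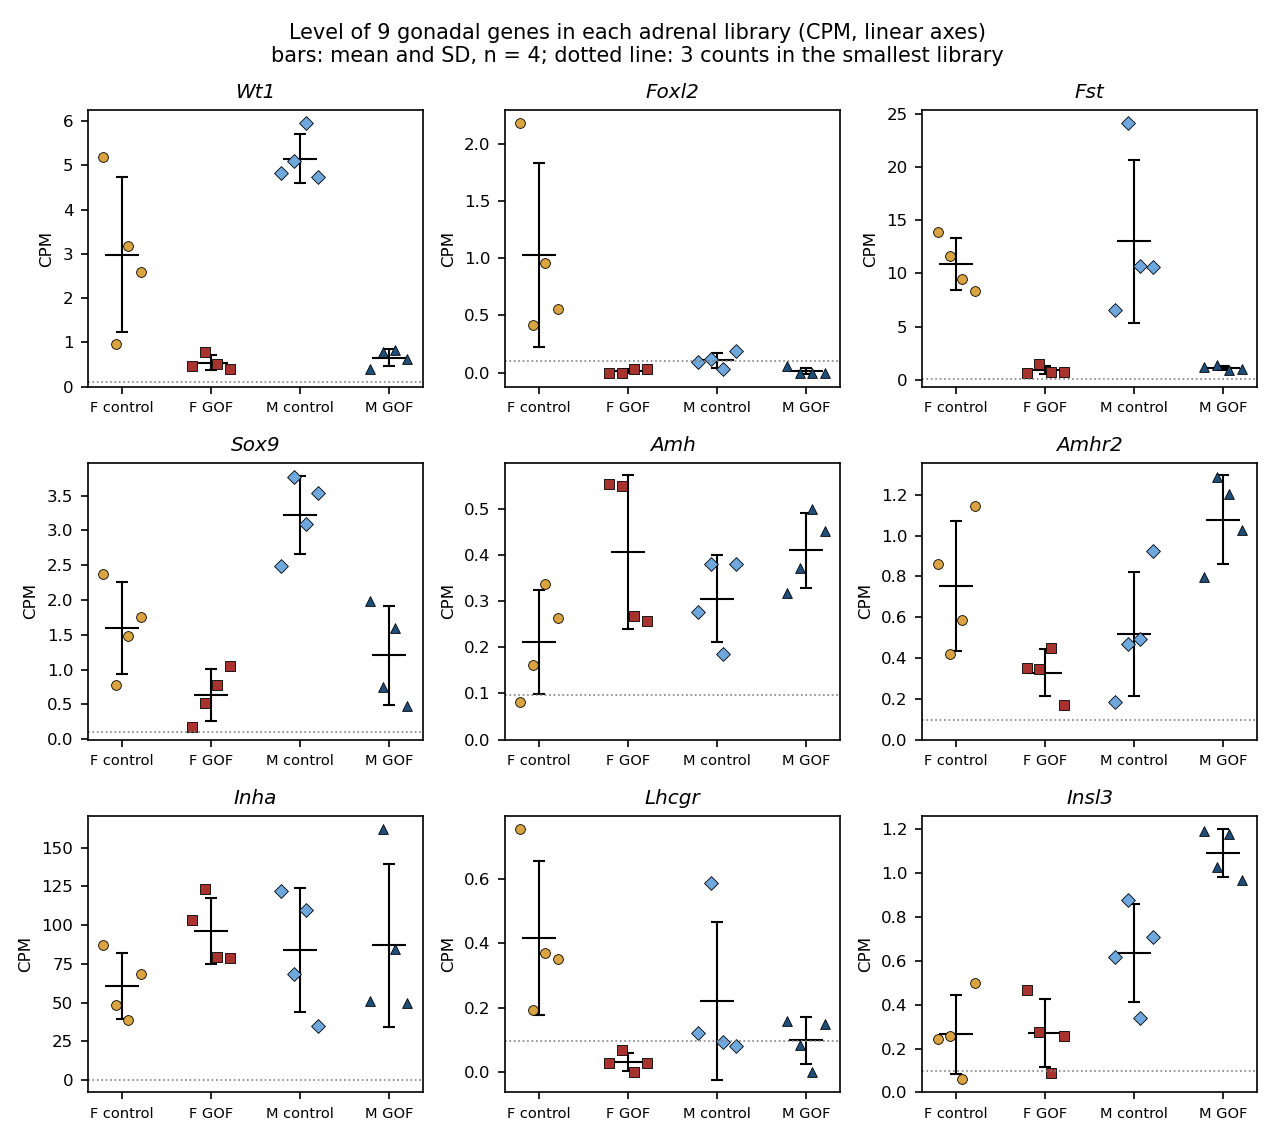
CPM (y axis, linear) of the 9 members with counts in each of the 16 libraries, by group (x axis). Each point is 1 library, bars give the mean and SD (n = 4), and the dotted line marks 3 counts in the smallest library. Wt1 and Fst sit low in the 8 GOF libraries, and Foxl2 and Lhcgr lie at or under the line in female GOF.

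Among the transcription factors, Wt1 had the clearest pattern. Wt1 encodes a zinc finger protein needed for the formation of gonad, kidney and adrenal, and it marks mesothelium and kidney podocytes (ENSMUSG00000016458, chromosome 2, 105126529 to 105173616, plus strand, GRCm38). It had 193, 30, 103 and 88 counts in female controls 1 to 4 and 16, 34, 17 and 14 in female GOF 1 to 4. In males it had 157, 174, 193 and 174 counts in the controls and 15, 27, 33 and 21 in GOF. Every GOF library lay under every control library of its sex on the CPM scale, by a narrow margin in females, where female control 2 was at 0.968 CPM and female GOF 2 at 0.779 CPM. Female means were 2.98 ± 1.75 CPM with the control genotype and 0.539 ± 0.166 with GOF, and the log2 fold change was -2.46 ± 0.41 (SE, edgeR adjusted p = 0.000286). In males the means were 5.16 ± 0.562 and 0.658 ± 0.191 CPM, a log2 fold change of -2.96 ± 0.41 (edgeR adjusted p = 5.59e-05).

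The female control value of Wt1 depended on female control 1, without which the mean was 2.24 ± 1.14 CPM (n = 3). That library also held 114 counts of Nphs1, a podocyte slit diaphragm gene, and female control 3 held 19. In male controls Nphs1 had at most 1 count. The summed level of all 8 podocyte markers was 429 CPM in female control 1 and 386 to 469 CPM in the female controls together. It was 343 to 373 CPM in female GOF, 263 to 359 in male controls and 288 to 334 in male GOF. A sum of that size in every library cannot track so few counts of Nphs1. The part of podocytes in the result for Wt1 was not tested. Of the 7 tested podocyte markers 2 were called lower in females and 1 in males. Without female controls 1 and 3 and male control 2, the log2 fold change of Wt1 was -1.71 in females (edgeR adjusted p = 0.00776) and -2.98 in males (edgeR adjusted p = 6.01e-05). Mesothelium markers moved with Wt1. Summed over 8 genes, in CPM, they ran from 13.0 to 40.6 in the female control group, from 7.21 to 13.7 in female GOF, from 31.4 to 47.1 in male controls and from 12.1 to 18.4 in male GOF, with none of the 8 at 0 throughout a group. Of these genes 5 of 8 were called lower in females and 6 of 8 in males, among them Upk3b, a urothelial and mesothelial membrane protein gene, with log2 fold changes of -1.51 ± 0.43 and -2.65 ± 0.45. Without female controls 1 and 3 and male control 2, edgeR called 0 of 8 in females, where 4 had an unadjusted p under 0.05, and 5 of 8 in males. The part of mesothelium in the result for Wt1 was not tested.

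Sox9, the Sertoli cell determinant that is also made by cartilage, kidney and glial cells, was lower in GOF with more overlap (ENSMUSG00000000567, chromosome 11, 112782224 to 112787760, plus strand). It had 88, 24, 48 and 60 counts in female controls and 6, 23, 26 and 37 in female GOF. The male values were 81, 129, 100 and 130 counts in controls and 75, 26, 64 and 16 in GOF. In females the groups overlapped, since female control 2 lay at 0.775 CPM, under female GOF 3 and 4. In males they did not overlap on the CPM scale. Mean levels fell from 1.60 ± 0.663 to 0.634 ± 0.375 CPM in females, a log2 fold change of -1.33 ± 0.51 (edgeR adjusted p = 0.0480). They fell from 3.22 ± 0.564 to 1.20 ± 0.708 CPM in males, -1.41 ± 0.49 on the log2 scale (edgeR adjusted p = 0.0351). Both calls were fragile: that in females was lost in 10 of 16 fits that each left out 1 library, with an adjusted p of up to 0.133, and that in males in 5 of 16, with up to 0.0918. The male call was also lost in a fit that took account of the animal numbers in the labels (log2 fold change -1.39, edgeR adjusted p = 0.0575). Schwann cell markers, the glia among which SOX family factors are known to act, moved the same way. The summed level of 8 such genes ran from 37.1 to 100 CPM in female controls against 8.86 to 14.9 in female GOF, and from 54.3 to 546 against 12.1 to 14.4 in males. Of these markers 7 of 8 and 8 of 8 were called lower, none was at 0 throughout a group, and their part in the result for Sox9 was not tested.

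**Figure D2:**
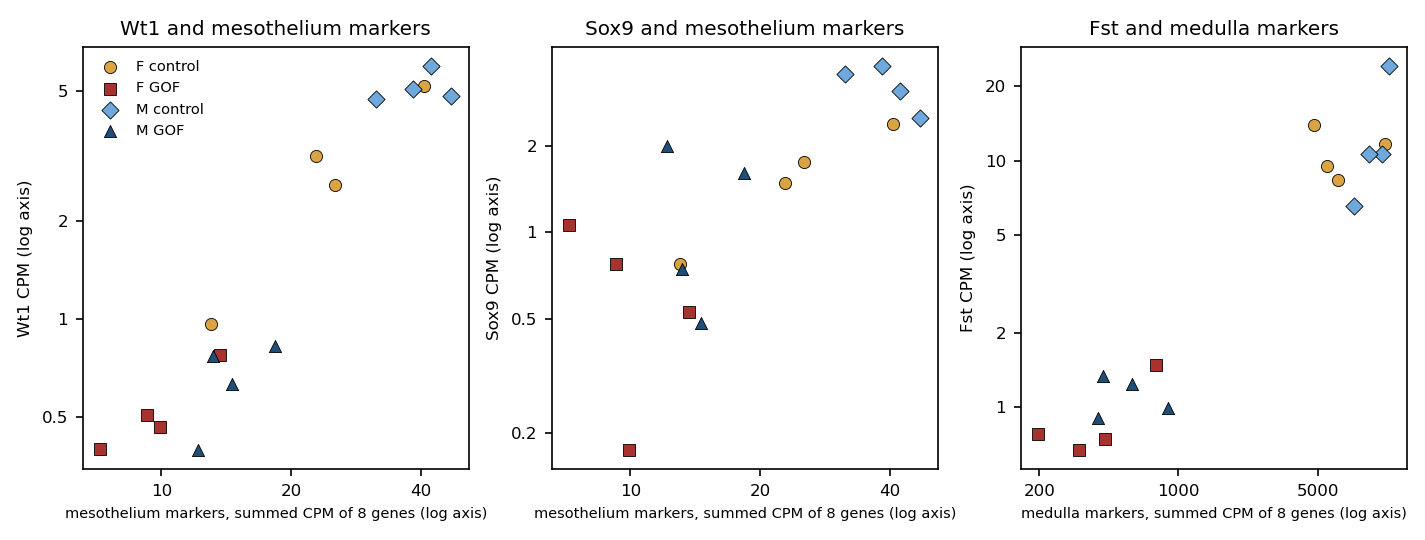
Levels of Wt1 and Sox9 (y axes, CPM, log) against the summed level of 8 mesothelium markers (x axes, CPM, log), and of Fst against 8 medulla markers. Each point is 1 of the 16 libraries, coloured by group, and the GOF libraries sit at the low end for Wt1 and Fst. For Sox9, female GOF 3 and 4 and male GOF 1 and 3 lie in the range of the female controls.

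Foxl2, the granulosa cell factor, had its highest counts in female controls (ENSMUSG00000050397, chromosome 9, 98955288 to 98958543, plus strand, a single exon). It had 81, 13, 31 and 19 counts in female controls and 0, 0, 1 and 1 in female GOF. Male controls had 3, 4, 1 and 7 counts and male GOF had 2, 0, 0 and 0. Only female controls stood above the floor in every library, at 1.03 ± 0.802 CPM, or 0.644 ± 0.278 (n = 3) without female control 1, the highest. Summed over libraries, female controls held 144 counts against 2 in female GOF, a ratio of 78.2 after scaling, with an exact 95% interval from 21.3 to 652 that covers counting error only. The difference passed the test (edgeR adjusted p = 0.000132). It also passed without female control 1 and male control 2 (edgeR adjusted p = 0.000456). In males the sums were 15 and 2 counts, a ratio of 8.05 with an interval from 1.87 to 72.5, and the threshold was missed (edgeR adjusted p = 0.0533). It was passed in 4 of 16 fits without 1 library, with adjusted p between 0.0192 and 0.0468: those without female control 1, female control 2, male control 3 or male GOF 1, the last of which held both counts of its group. Foxl2os, a transcript on the opposite strand that shares 12 exon bases with Foxl2, had 1 to 33 counts in female controls and at most 4 in the other groups. The labels do not say whether the counting used strand.

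Dmrt1, the DM domain factor that keeps Sertoli cells from changing to granulosa-like cells (ENSMUSG00000024837, chromosome 19, 25505618 to 25604329, plus strand), had no counts and could not be compared. With 0 counts, a level of up to 0.0687 to 0.0968 CPM per library is allowed.

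Among the secreted factors, Fst changed the most. Follistatin binds activins and keeps them from their receptors (ENSMUSG00000021765, chromosome 13, 114452290 to 114458951, minus strand). Fst had 517, 361, 309 and 285 counts in female controls and 23, 65, 26 and 26 in female GOF. In males the controls had 213, 825, 345 and 391 counts and GOF had 47, 47, 36 and 33. No GOF library came near a control library. Mean levels fell from 10.9 ± 2.46 to 0.920 ± 0.381 CPM in females, 11.8-fold, with a log2 fold change of -3.55 ± 0.39 (edgeR adjusted p = 9.34e-06). In males they fell from 13.0 ± 7.68 to 1.12 ± 0.207 CPM, 11.6-fold, with a log2 fold change of -3.53 ± 0.38 (edgeR adjusted p = 6.73e-06). Male control 2 was the highest of its group at 24.1 CPM, and without it the male control mean was 9.28 ± 2.36 (n = 3). The call held in each of the 29 alternative fits in both sexes. Markers of the adrenal medulla fell as well: their summed level over 8 genes ran from 4775 to 10850 CPM in female controls against 198 to 769 in female GOF, and from 7606 to 11460 against 396 to 883 in males. All 8 were called lower in both sexes, none was at 0 in any library, and their part in the result for Fst was not tested.

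Inha encodes the alpha subunit that pairs with an activin beta subunit to form inhibin (ENSMUSG00000032968, chromosome 1, 75507077 to 75510366, plus strand). It had 3231, 1501, 1265 and 2328 counts in female controls and 3538, 5376, 2653 and 2749 in female GOF. Males had 3967, 2344, 3558 and 1280 counts in controls and 1932, 5678, 3370 and 1653 in GOF. The groups overlapped in both sexes, and male GOF libraries alone ran from 49.9 to 162 CPM. Mean levels were 60.7 ± 21.4 CPM in female controls, 96.1 ± 21.4 in female GOF, 83.9 ± 39.9 in male controls and 87.0 ± 52.7 in male GOF. The log2 fold change was 0.66 ± 0.42 in females (edgeR adjusted p = 0.225) and 0.05 ± 0.42 in males (edgeR adjusted p = 0.937), neither past the threshold.

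Amh, the hormone that makes the Müllerian ducts regress, was low but above the floor in every group (ENSMUSG00000035262, chromosome 10, 80805243 to 80807648, plus strand). Female controls had 3, 5, 11 and 9 counts and female GOF had 19, 24, 9 and 9. Male controls had 9, 13, 6 and 14 counts and male GOF had 12, 13, 20 and 15. All groups overlapped, with means between 0.211 ± 0.113 CPM in female controls and 0.411 ± 0.0817 CPM in male GOF. Neither the log2 fold change of 0.95 ± 0.42 in females (edgeR adjusted p = 0.0885) nor that of 0.42 ± 0.41 in males (edgeR adjusted p = 0.454) passed. Without female control 3 the female value was 1.27 and passed (edgeR adjusted p = 0.0479). Amh starts 319 bases downstream of Sf3a2, a splicing factor gene on the same strand. Sf3a2 had 1523 to 2099 counts in female controls, 2746 to 3636 in female GOF, 1857 to 2136 in male controls and 2211 to 2909 in male GOF. The part of its reads in the counts of Amh was not tested.

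Insl3, the Leydig cell peptide that brings the testis down, was higher in male than in female GOF (ENSMUSG00000079019, chromosome 8, 71689214 to 71690575, plus strand). It had 9, 8, 2 and 17 counts in female controls and 16, 12, 3 and 9 in female GOF. Male controls had 20, 30, 11 and 26 counts and male GOF had 45, 36, 47 and 32. The 4 male GOF libraries lay between 0.967 and 1.19 CPM, above the other 12. Against control, the log2 fold change was 0.04 ± 0.51 in females (edgeR adjusted p = 0.965) and 0.78 ± 0.46 in males (edgeR adjusted p = 0.200). These counts are uncertain, because Insl3 shares 404 of its 623 exon bases with Jak3, a cytokine signalling kinase gene on the same strand. Jak3 itself had 502 to 767 counts in female controls, 518 to 697 in female GOF, 756 to 1170 in male controls and 1032 to 1445 in male GOF, with the higher ranges in males. The part of Jak3 reads in the result for Insl3 was not tested.

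Of the 2 receptors, Amhr2, the type 2 receptor that binds AMH, was lower in female GOF, while in males its mean was higher in GOF without passing the test (ENSMUSG00000023047, chromosome 15, 102445367 to 102454633, plus strand). It had 32, 13, 19 and 39 counts in female controls and 12, 15, 15 and 6 in female GOF. Male controls had 6, 16, 16 and 34 counts and male GOF had 30, 45, 48 and 34. GOF libraries overlapped with controls in both sexes. Female means were 0.753 ± 0.319 CPM with the control genotype and 0.329 ± 0.115 with GOF, a log2 fold change of -1.19 ± 0.44 (edgeR adjusted p = 0.0428). They were 0.518 ± 0.305 in male controls and 1.08 ± 0.217 CPM in male GOF, a log2 fold change of 1.05 ± 0.42 that did not pass (edgeR adjusted p = 0.0657). The female call was lost in 7 of 16 fits without 1 library, with an adjusted p of up to 0.133, and in a fit that also took account of the animal numbers in the labels, grouped into 4 classes (edgeR adjusted p = 0.114). The male difference passed with DESeq2 (adjusted p = 0.0452) and without male control 4 (edgeR adjusted p = 0.0172).

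The region before the Amhr2 start is printed because Amhr2 was the member with the largest difference in response between the sexes among those above the floor. Sequences are those of RefSeq on GRCm38.p6, whose table of promoters held 5 of the 10 members: Foxl2, Amhr2, Inha, Lhcgr and Insl3. In windows of 300 bases, from 250 before to 50 after the RefSeq start, 4 motifs were searched on both strands: AAGGTCA (a motif bound by NR5A1), CTTTGA (TCF/LEF, the factors of WNT signalling), AGATAA (bound by GATA factors) and ACAAAG (bound by SOX factors). They occur in 4.72%, 16%, 11.2% and 18.7% of 32851 such promoters. The 250 bases before Amhr2, chr15:102445117-102445366 on the plus strand, hold 1 match, 231 to 225 bases upstream, in capitals:
Amhr2: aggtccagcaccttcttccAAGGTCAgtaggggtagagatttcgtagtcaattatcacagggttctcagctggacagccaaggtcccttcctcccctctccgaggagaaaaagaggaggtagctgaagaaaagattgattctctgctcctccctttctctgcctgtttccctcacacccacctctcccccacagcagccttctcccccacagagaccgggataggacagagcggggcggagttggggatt

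The other matches are shown in stretches of 30 bases, 5′ to 3′ along the gene, with the matched letters in capitals. They lie at chr1:75507535-75507564 on the plus strand (Inha, TCF/LEF, 62 to 57 bases upstream), chr17:88792235-88792264 on the minus strand (Lhcgr, TCF/LEF read from the other strand, 245 to 240 bases upstream) and chr8:71689029-71689058 on the plus strand (Insl3, SOX, 211 to 206 bases upstream). None overlapped another searched motif, and the Foxl2 window held none of the 4. For Foxl2, Inha, Lhcgr and Insl3 the RefSeq start differs from the GENCODE start. A match is a description of letters, not a shown binding site.
Inha: ttggcaggtcaaCTTTGAagagtagccggt
Lhcgr: agagtTCAAAGcctcactctaagcgcttac
Insl3: ggcttcacccttACAAAGgggcgcttggct

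Lhcgr, the receptor for luteinizing hormone, was a low transcript, at the floor only in female GOF (ENSMUSG00000024107, chromosome 17, 88716481 to 88791990, minus strand). It had 28, 6, 12 and 12 counts in female controls and 1, 3, 0 and 1 in female GOF. Male controls had 4, 20, 3 and 3 counts and male GOF had 6, 3, 0 and 5. Female GOF libraries lay under all female controls, while the male groups overlapped. The female sums of 58 and 5 counts gave a ratio of 12.6 after scaling, with an exact 95% interval from 5.1 to 40.3 for counting error only (edgeR adjusted p = 0.00641). In males the log2 fold change was -1.15 ± 0.81 (edgeR adjusted p = 0.283), from 0.221 ± 0.244 CPM in controls and 0.0990 ± 0.0737 in GOF. It rested on male control 2, at 0.585 CPM, without which the control mean was 0.0991 ± 0.0215 (n = 3) and the log2 fold change -0.02 (edgeR adjusted p = 0.989).

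**Figure D3:**
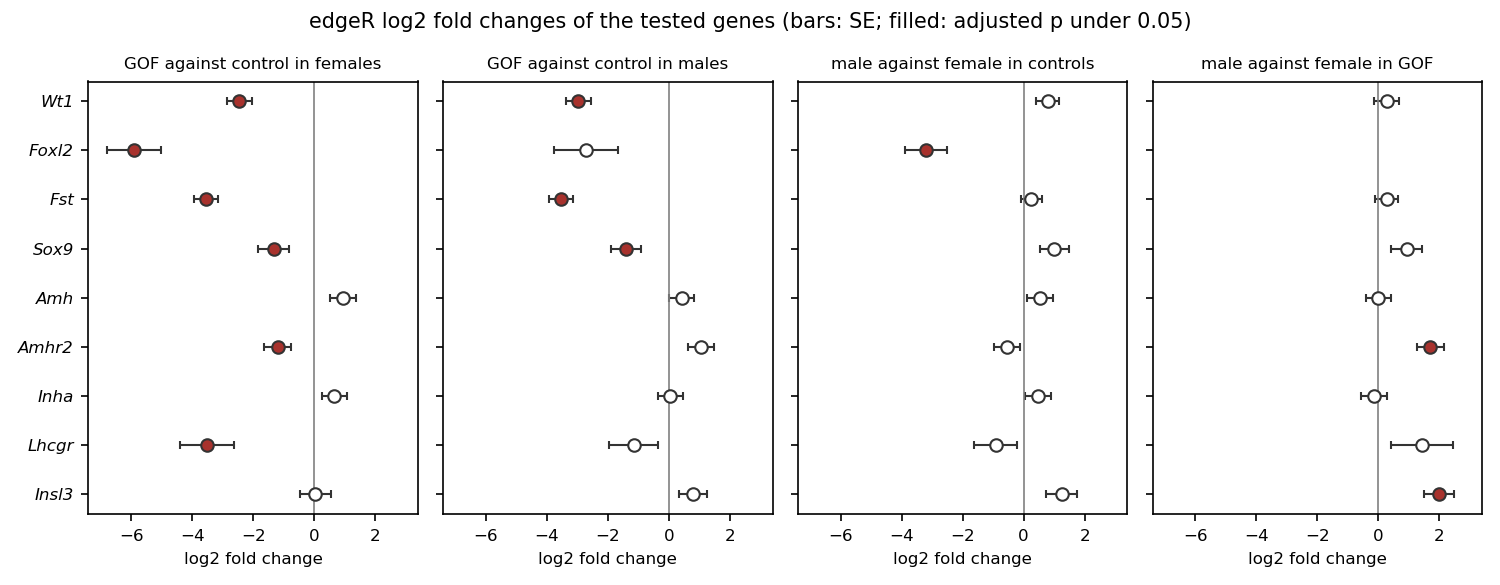
Log2 fold changes (x axes) of the 9 tested members in 4 comparisons, with bars for the SE and filled points for an adjusted p under 0.05 by edgeR. Foxl2 is left out of the comparison of male with female GOF, where both groups were at the floor, and 4 values are fitted with 1 group at the floor: Foxl2 in females and in males, and Lhcgr in females and between male and female GOF. Fst and Wt1 lie far to the left in both sexes, and Amhr2 lies on opposite sides of 0.

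Between male and female controls, 1 of 9 members was called, Foxl2, which was lower in males. Its log2 fold change was -3.20 ± 0.69 (edgeR adjusted p = 0.00400), and male controls were at 0.108 ± 0.0660 CPM. Among all tested genes 23.4% were called in this comparison, 13.5% higher and 9.89% lower in males. The call was lost without female controls 1 and 3 and male control 2 (edgeR adjusted p = 0.138). No member was called higher in males; Insl3 had an unadjusted p of 0.0237, an adjusted p of 0.0804 and a log2 fold change of 1.25 ± 0.50, and DESeq2 called 0 higher. For Wt1 the log2 fold change was 0.79 ± 0.38 (edgeR adjusted p = 0.140), and without female control 1 it was 1.20 and passed (edgeR adjusted p = 0.0330). On CPM alone Sox9 was higher in all male controls than in any female control, and Foxl2 lower. The share of all tested genes without overlap was 25.3%, 14.4% higher and 10.9% lower. The median over the members was 0.47, against 0.08 over all tested genes.

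In GOF adrenals 2 of 9 members were higher in males, Amhr2 and Insl3, and none was lower by edgeR, by DESeq2 or at an unadjusted p under 0.05. Amhr2 had a log2 fold change of 1.70 ± 0.44 (edgeR adjusted p = 0.00877) and Insl3 of 1.99 ± 0.49 (edgeR adjusted p = 0.00659). For both, every male GOF library lay above every female GOF library. Markers of other cells were higher in male GOF too: 6 of 8 capsule and stroma markers, with sums of 292 to 353 CPM against 191 to 243 in female GOF, and 6 of 10 macrophage markers, with 588 to 1741 against 305 to 687, none lower and none at 0 throughout a group. Their part in the results for Amhr2 and Insl3 was not tested. Of all tested genes 29.6% were called, 13.3% higher and 16.3% lower in males, and 29.1% had no overlap, 13.4% higher and 15.7% lower. In the fit with the 4 classes of animal number, neither passed: the log2 fold change was 1.15 for Amhr2 (edgeR adjusted p = 0.285) and 1.615 for Insl3 (edgeR adjusted p = 0.221). Numbered in order, classes 2 and 3 held only females and class 4 only males, so sex and class can hardly be told apart in that fit. The median over the 9 members was 0.28, against 0.03 over all tested genes. It includes Foxl2, which was at the floor in both groups. Over the 8 members without Foxl2 it ran from 0.42 to 0.77 in the fits that each left out 1 library.

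The difference between the sexes in the response to GOF was tested as an interaction, the male minus the female log2 fold change. None of the 9 members was called, against 4.21% of all tested genes, 1.59% higher and 2.61% lower. At an unadjusted p under 0.05 there was 1 member, Amhr2. Its interaction was 2.24 ± 0.61, with an edgeR adjusted p of 0.0530. DESeq2 called it (adjusted p = 0.0116), as did the fit without male control 4 (edgeR adjusted p = 0.0263). Over all alternatives its adjusted p ran from 0.0116 to 0.217. For Fst the interaction was 0.02 ± 0.48 (edgeR adjusted p = 0.989), and for Wt1 it was -0.51 ± 0.55 (edgeR adjusted p = 0.643).

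Levels of different genes were compared per length, as mean FPKM (fragments per kilobase and per 1000000 fragments). Inha led every group, at 39.9 ± 14.6 FPKM in female controls, 65.6 ± 15.1 in female GOF, 55.0 ± 25.8 in male controls and 62.1 ± 36.9 in male GOF. In the controls Fst came next, at 6.11 ± 1.38 in females and 7.35 ± 4.22 in males, followed by Wt1 at 1.52 ± 0.900 and 2.64 ± 0.291. The next members of female controls, Amhr2 at 0.753 ± 0.334, Insl3 at 0.414 ± 0.287, Sox9 at 0.374 ± 0.160 and Foxl2 at 0.306 ± 0.241, did not differ beyond their spread, nor did Lhcgr at 0.129 ± 0.0748 and Amh at 0.122 ± 0.0652. In female GOF the order after Inha ran from Fst at 0.541 ± 0.229 through Insl3, Amhr2, Wt1 and Amh to Sox9 at 0.154 ± 0.0912, with neighbours within their spread, and Lhcgr, Foxl2 and Dmrt1, all at the floor there, came last. In male GOF the order after Inha was Insl3 at 1.85 ± 0.205, Amhr2 at 1.17 ± 0.247, Fst at 0.689 ± 0.111 and Wt1 at 0.367 ± 0.112. The place of Insl3 is uncertain, since 404 of its 623 exon bases are shared with Jak3. This order also depends on the length used. The deposited FPKM values rest on a mean transcript length per gene, which was shorter than the merged exons for Wt1 (1899 against 6195 bases), Fst (1714 against 4589), Lhcgr (3128 against 7645) and Amhr2 (971 against 2005). Per merged exon length, Inha still led every group and Fst was next in controls, at 2.28 ± 0.515 in females and 2.75 ± 1.58 in males. Wt1 then lay at 0.466 ± 0.276 in female controls, within the spread of Insl3, Sox9 and Amhr2. In male controls it lay at 0.810 ± 0.0891, under Insl3 at 0.991 ± 0.346 but within its spread. In male GOF, Fst at 0.257 ± 0.0416 and Wt1 at 0.112 ± 0.0344 then had lower means than Sox9 and Amh, for Fst within their spread.

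The genes whose log2 CPM followed each member most closely over the 16 libraries were sought among 13510 genes with a mean of at least 1 CPM. Fst ran with Kndc1 (Pearson r = 0.99), Prkcz (0.98) and Plppr4 (0.98), and Wt1 with Ablim3 (0.98), Hoxc9 (0.97) and Ddo (0.96). Foxl2 ran with P3h2 (0.94), Exoc6 (0.94) and Pgd (0.92), which were at 20.3, 43.4 and 343 CPM in female controls and lower in the other groups. Sox9 ran with Map3k7cl (0.92), Cacna1g (0.90) and Nkain4 (0.89), and Insl3 with Tspyl2 (0.92), Ap3d1 (0.88) and Hmbox1 (0.88). Inha ran with its neighbour Obsl1 (0.91), a gene on the opposite strand 625 bases away with 2627 to 7902 counts, and with Gnat2 (0.87) and Rpl21 (0.84). Amhr2 had the weakest partners, Rasgrp2 (0.84), Gimap9 (0.83) and Bik (0.81). The libraries share their groups in these correlations, which are given as a description.

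Beyond the members, 5 lists of genes of gonadal cells and of their signalling were followed. The first held 26 genes of activin, inhibin and AMH signalling, of which 25 were tested. In females 9 were called higher and 7 lower, or 64% of the list against 39.6% of all tested genes, with a median log2 fold change of 0.20 against 0.05. In males 3 were higher and 6 lower, or 36% against 36.9%, a share near that of all genes, with a median of -0.07 against 0.01. Of the ligands, Inhba, the activin A subunit, had log2 fold changes of -1.21 ± 0.22 in females and -2.16 ± 0.23 in males (edgeR adjusted p = 0.000681 and 5.32e-06). Inhbb, the activin B subunit, passed as lower in males, at -0.95 ± 0.30 against 0.20 ± 0.30 in females, and its interaction was not called. The male call was lost in 3 of 16 fits without 1 library (male GOF 2 or 4, or male control 4, left out), with an adjusted p of up to 0.0631. Igsf1, a membrane glycoprotein gene, was lower in both sexes, at -1.41 ± 0.40 and -3.37 ± 0.43. Fstl3, an activin-binding relative of follistatin, rose by 0.89 ± 0.24 in females (edgeR adjusted p = 0.00962) and had a log2 fold change of 0.52 ± 0.24 in males (edgeR adjusted p = 0.0951).

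Of the receptors, Acvr1, a type 1 receptor through which AMH and BMP signals can pass, rose by 1.13 ± 0.23 and 1.40 ± 0.23 on the log2 scale in females and males. Lower in both were Bmpr1b, a type 1 BMP receptor, with log2 fold changes of -3.24 ± 0.62 and -3.65 ± 0.62, and Acvr1c, with -1.35 ± 0.26 and -0.84 ± 0.26. The male call of Acvr1c was lost in 3 of 16 fits without 1 library (male control 3, male GOF 2 or male GOF 4), with no filter and with only the groups compared, at an adjusted p of up to 0.0574. Acvr2a, the activin type 2A receptor, fell in females by 0.68 ± 0.08 (edgeR adjusted p = 2.68e-05) and not in males, at -0.07 ± 0.08, and it was the 1 gene of the list with a called interaction, 0.61 ± 0.12 (edgeR adjusted p = 0.0105). Without female controls 1 and 3 and male control 2 that interaction was 0.64 and did not pass (edgeR adjusted p = 0.0739), and DESeq2 called 2 interactions higher and 2 lower on the list. Female GOF, male control and male GOF were at 29.2 ± 1.83, 30.4 ± 2.46 and 28.9 ± 3.04 CPM for Acvr2a, and female controls stood alone at 46.8 ± 1.65. Of the SMAD genes, the inhibitory Smad6 rose by 1.26 ± 0.20 and 1.11 ± 0.20, and Smad9, a BMP effector, by 1.20 ± 0.27 and 1.48 ± 0.27. Smad2, Smad3, Smad4, Smad5 and Smad7 passed as higher in females and did not pass in males, with female log2 fold changes from 0.18 to 0.66, and none of them had a called interaction. The female call was lost in 11 of 16 fits without 1 library for Smad2 and in 5 each for Smad4 and Smad5, and that of Smad2 also with DESeq2 (adjusted p = 0.0650), RLE factors and upper-quartile factors. Smad7 passed in males with DESeq2 (adjusted p = 0.0361). The interaction of Smad3 passed without male control 2 (edgeR adjusted p = 0.0148), and that of Smad2 without male GOF 2 (-0.435, edgeR adjusted p = 0.0341), where Smad2 was also called lower in males (edgeR adjusted p = 0.0444). Without female control 1 and male control 2, the list held 7 higher and 6 lower calls in females and 3 and 6 in males.

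**Figure D4:**
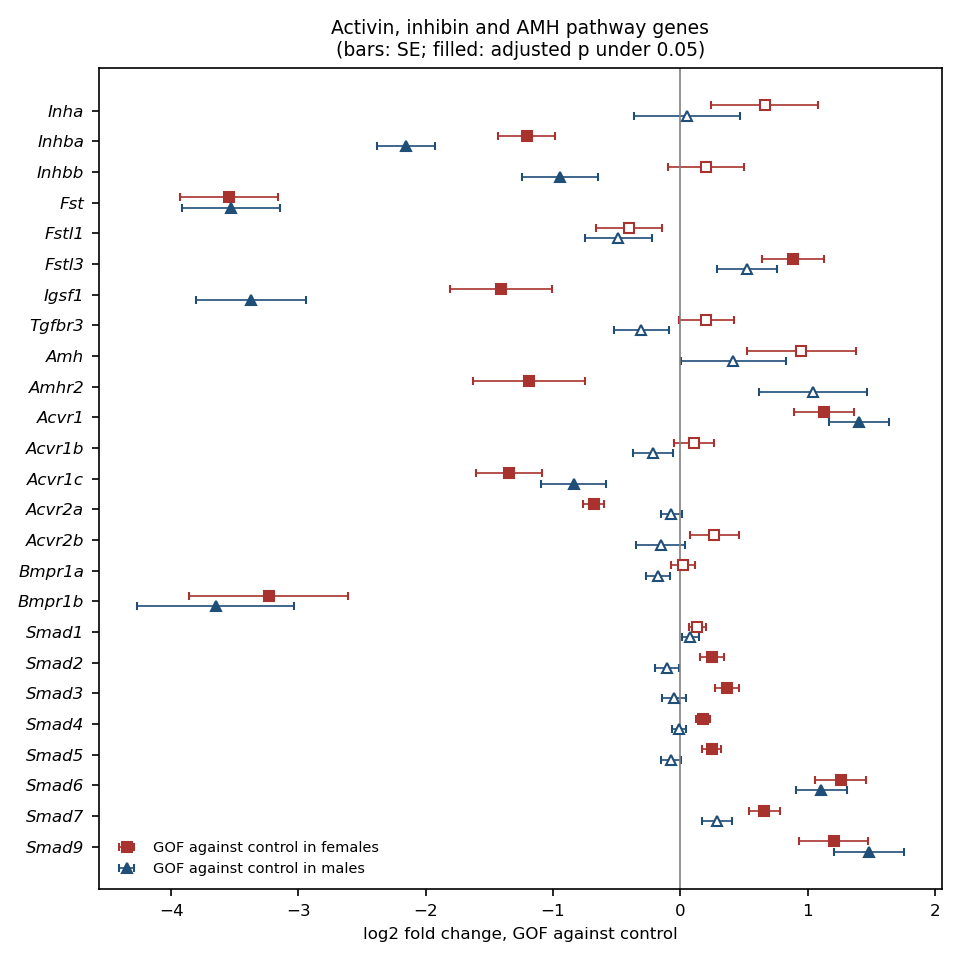
Log2 fold changes of GOF against control (x axis) for the 25 tested genes of activin, inhibin and AMH signalling (y axis), in females (squares) and males (triangles). Bars give the SE and filled points an adjusted p under 0.05 by edgeR; Fst, Bmpr1b and Inhba lie left of 0 and Acvr1, Smad6 and Smad9 right of 0 in both sexes.

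Of 18 Sertoli cell genes 13 were tested. In females 2 were called higher (Aard and Dhh) and 6 lower, and in males none was higher and 7 were lower, with medians of -0.31 and -0.84 against 0.05 and 0.01 over all tested genes. That is 61.5% and 53.8% of the list, against 39.6% and 36.9% of all tested genes. DESeq2 called 1 higher in males, and by edgeR 2 had an unadjusted p under 0.05 there, Defb19 and Fgf9. The lower genes in both sexes were Sox9, Sox8, Sox10, Cldn11, Ptgds and Gdnf. The call of Aard was lost in 5 of 16 fits without 1 library, with an adjusted p of up to 0.139, and the male call of Cldn11 in 4, with up to 0.0705. Sox10 is a glial factor that is also on the Schwann cell list, and it had log2 fold changes of -2.45 ± 0.39 in females and -3.69 ± 0.40 in males. Sox8, a close relative of Sox9, had log2 fold changes of -2.68 ± 0.45 and -4.06 ± 0.47, and its GOF means were 0.164 ± 0.110 and 0.123 ± 0.0446 CPM. Of the 5 genes not tested, Fshr, Sry and Dmrt1 had 0 counts throughout. Without female control 1 and male control 2, 1 was higher and 5 lower in females, and 0 and 5 in males.

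Among 17 granulosa cell genes 15 were tested, and 4 were called higher and 6 lower in females against 4 and 5 in males. That is 66.7% and 60% of the list, against 39.6% and 36.9% of all tested genes, with medians of -0.28 and -0.26. The 2 genes not tested were Fshr and Cyp19a1. Rspo1 is on this list as the altered gene. Wnt4, the ovarian WNT ligand, rose by 0.69 ± 0.18 in females and fell by 0.80 ± 0.18 in males, with an interaction of -1.49 ± 0.26 (edgeR adjusted p = 0.00593). Hsd17b1, an estrogen-forming enzyme gene of granulosa cells, did the reverse, at -0.836 ± 0.305 and 1.175 ± 0.315, with an interaction of 2.01 ± 0.44 (edgeR adjusted p = 0.0203). Without female control 1 and male control 2 that interaction was 1.54 and did not pass (edgeR adjusted p = 0.0551), nor did it pass without female control 3 as well (1.74, edgeR adjusted p = 0.0576). The female log2 fold change of Hsd17b1 was -0.516 without female control 1 alone (edgeR adjusted p = 0.177), and its female call was lost in 6 of 16 fits without 1 library. Kitl, the KIT ligand, was higher in female GOF by 1.57 ± 0.52 (edgeR adjusted p = 0.0280), a call lost in 4 of 16 fits without 1 library and, at 1.31, without female control 1 and male control 2 (edgeR adjusted p = 0.0731). Without female control 1 and male control 2, 3 were higher and 4 lower in females and 5 and 5 in males.

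Of 11 Leydig and theca cell genes 9 were tested, and 2 were called higher and 2 lower in females against 3 and 2 in males, with medians of -0.11 and 0.25. In females that is 44.4% of the list, near the 39.6% of all tested genes, and in males 55.6% against 36.9%. The list shares 4 of its 11 genes, Cyp11a1, Hsd3b1, Nr5a1 and Star, with the adrenal cortex markers. Hsd3b1 and Nr5a1 rose in both sexes, Nr5a1 by 0.82 ± 0.22 and 1.04 ± 0.22, and Star, the cholesterol carrier of steroid synthesis, fell, at -0.78 ± 0.21 and -0.57 ± 0.21. The male call of Star was lost in 7 of 16 fits without 1 library, with upper-quartile factors (edgeR adjusted p = 0.0736) and without female control 1 and male control 2 (edgeR adjusted p = 0.0594). The male call of Hsd3b1 was lost in 4 of 16 and in that last fit (edgeR adjusted p = 0.0775). Without female control 3 as well, the female calls of Star (edgeR adjusted p = 0.0664) and Nr5a1 (edgeR adjusted p = 0.138) were lost. In the fit without female control 1 and male control 2, in which Hsd17b3 was tested and Lhcgr was not, the list held 2 higher and 2 lower calls in females and 2 and 1 in males. Hsd17b3, the testosterone-forming enzyme gene of Leydig cells, was at the floor in female GOF and had at most 37 counts elsewhere. Cyp17a1, which mouse adrenals are known to lack after birth, had between 1 and 48 counts, at 0.804 ± 0.507 CPM in male controls and 0.156 ± 0.0904 in female controls.

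Of 13 genes of the gonadal ridge 11 were tested, and 2 were called higher and 6 lower in each sex, with medians of -0.74 and -0.99. That is 72.7% of the list, against 39.6% of all tested genes in females and 36.9% in males. Wt1, Osr1, Tcf21 and Zfpm2 were among the genes lower in both. Osr1, a zinc finger gene of the intermediate mesoderm, had log2 fold changes of -1.77 ± 0.37 and -2.92 ± 0.38 in females and males. Tcf21, which is also on the list of capsule and stroma markers, had log2 fold changes of -1.31 ± 0.26 and -1.04 ± 0.26. Of the 8 capsule and stroma markers 7 were called lower in each sex, with summed levels from 461 to 609 CPM in female controls against 191 to 243 in female GOF and from 758 to 1005 against 292 to 353 in males, none at 0, and their part in these results was not tested. Nr5a1 was the gene of the list called higher in both sexes. Without female control 1 and male control 2, the counts were 2 higher and 6 lower in females and 2 and 5 in males.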

How the data were processed

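RNA from adrenal glands of 16 mice was sequenced by a company as 150 bp paired-end reads after NEBNext Ultra library preparation, with an RNA integrity number of at least 7.0, per the labels. The submitters' processing notes list Bowtie2 2.2.3, TopHat2 2.0.12, HTSeq 0.6.1 and DESeq 1.18.0; the genome build and strandness are not given in the sources used here. Counts were deposited by the authors per Ensembl gene, as whole reads without normalization. The authors also deposited FPKM values; the lengths they imply equal the mean GENCODE M21 transcript length within 0.1% in 97.4% of 34180 genes, so names and coordinates come from M21 on GRCm38, an inference from the values. FPKM served only to compare genes and for alternative fits.

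Groups came from the labels, and replicate numbers follow accession order. Counts were scaled with TMM factors, filtered with filterByExpr and tested with edgeR 4.0.16 (robust quasi-likelihood, R 4.3.3), in 1 model for 16 libraries with a mean per group, over 18214 of 34196 genes with a count. P-values were adjusted by Benjamini-Hochberg with a threshold of 0.05, and SE was the log2 fold change divided by the root of F. Fitted log2 values are computed from the deposited counts, and log2(FPKM + 1) and log2(FPKM + 0.1) from the authors' FPKM. Intervals are exact binomial ones. The scripts were tested on simulated data, with changes set in female GOF for genes with a mean of at least 1 CPM. Of 2-fold changes 57% were recovered and of 4-fold changes 87%, and 2% of the calls were false.

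The 10 members, the lists and the tests were chosen with earlier results of these data known. All members are named; from the lists, genes past the threshold and any gene of activin, inhibin and AMH signalling may be named (some are not reported here), and for each member with at least 1 CPM in a group the 3 genes of highest Pearson r. A like pattern needed a mean of at least 1 CPM, and r used log2 CPM with a prior count of 2. Alternatives were DESeq2 1.42.0, RLE and upper-quartile factors, no low-count filter, a minimum of 10 counts in each library, a fit of just the groups compared, limma 3.58.1 on log2 FPKM, the animal number range in 4 classes as a covariate, an absolute log2 fold change of at least 1, and leaving out libraries.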

Additional observations from a re-analysis of the deposited data

Results flagged for a closer look

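In groups of 4 libraries, a value was singled out when its gap to the nearest other library, divided by the whole range of the group, was above Dixon's 95% critical value. Chance alone singles out about 1 in 20 groups, and 33 groups were looked at. Fst in female GOF 2 was at 1.49 CPM, against 0.777 CPM in the next library and a ratio of gap to range of 0.872. That library also had the highest summed medulla markers of its group, at 769 CPM. Lhcgr in male control 2 was at 0.585 CPM, against 0.123 CPM in the next library and a ratio of 0.918. Male control 2 is the library with 10310 CPM of liver markers and 546 CPM of Schwann cell markers.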

How the results depend on the processing

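No paired analysis was possible because the labels give no replicate numbers. Of 1183 recomputed values of single members, 1069 kept their direction and side of the threshold, 41 lost and 25 gained a call, and 48 changed sign, all of these from values that had not passed. Fst and Wt1 in both sexes passed in all 29 alternatives. Foxl2 and Lhcgr in females passed in every alternative that gave a value, 26 for Foxl2 and 23 for Lhcgr. In the main fit Foxl2 passed the low-count filter only through the female controls. Lhcgr passed it only through female controls 1, 3 and 4 and male control 2. These are the libraries where the 2 genes were highest, so their calls are not independent of the filter. At most 81 counts per library lie behind Amh, Amhr2, Insl3, Foxl2 and Lhcgr, which limits them to large differences, and a filter of 10 counts in every library removed 6 of the 9 members.

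The count of members called in females, 6, was 2 with at least 10 counts in every library, 2 with log2(FPKM + 1) and 2 with log2(FPKM + 0.1), where 3, 5 and 5 members were tested. It was 3 without female control 1 and male control 2, 3 without female controls 1 and 3 and male control 2, and 4 to 6 without 1 library. In males it was 3, became 5 with log2(FPKM + 1) and no filter, and was 2 to 4 without 1 library. Between the sexes in controls it was 1, became 0 with at least 10 counts and with log2(FPKM + 0.1), 2 with log2(FPKM + 1) and without female control 1 and male control 2, and was 1 to 2 without 1 library (2 without female control 1 or 4). Between the sexes in GOF it was 2, became 0 with at least 10 counts and 0 with the animal number range, and stayed at 2 without 1 library. The interaction count of 0 became 1 (Amhr2) with DESeq2, upper-quartile factors, log2(FPKM + 1) and log2(FPKM + 0.1), and was 0 to 1 without 1 library (1 without female control 2 or male control 4).

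Signs changed as follows on the log2 scale. Insl3 in females was -0.067 with the animal number range, -0.011 without female control 1 and male control 2, -0.48 without female control 3 as well, and -0.34 to 0.53 without 1 library. Inha in males was -0.036 without female control 1 and male control 2, -0.040 without female control 3 as well, and -0.46 to 0.29 without 1 library. Fst between control sexes was -0.085 and -0.11 in the same 2 fits and -0.23 to 0.48 without 1 library. Amh between GOF sexes was -0.0053 with only the groups compared, -0.19 with the animal number range, -0.00026 without female controls 1 and 3 and male control 2, and -0.15 to 0.19 without 1 library. Wt1 between GOF sexes was -0.33 with the animal number range, and Inha there was -0.63 to 0.057 without 1 library. The interaction of Sox9 was 0.028 with upper-quartile factors, which move the median interaction of all tested genes by 0.103, 0.31 with the animal number range and -0.41 to 0.30 without 1 library, and that of Fst was -0.20 to 0.50. The cause of these moves was not tested.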
